A study of Mus musculus with 12 samples.

Results

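Immediate-early genes are transcribed within minutes of a growth factor or stress signal, before any new protein is made, and many of them are switched on through the kinases ERK1 and ERK2. The genes described here were 10 immediate-early genes and feedback genes of ERK signalling. The transcription factor genes were Egr1, Egr2 and Egr3 (zinc finger factors of the EGR family) and Fos, Fosb and Junb (subunits of AP-1). The feedback genes were Dusp6 (a phosphatase that inactivates ERK), Spry2 and Spry4 (Sprouty inhibitors of receptor tyrosine kinase signalling) and Ier3 (a stress and growth factor response gene). They were found by the transcript accession of each non-control probe, which gave 10 probes, 1 per gene, of 55681 on the array. These are 10 of the 20660 genes matched there. Egr2 had been chosen because its level differed strongly between the clones of experiment 979 and the other clones, so that difference is described below without a test.

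The arrays held 12 mouse iPS cell clones, each a line grown from 1 reprogrammed colony of embryonic fibroblasts reprogrammed with retroviruses for Klf4, Sox2 and Oct3/4 and, in some inductions, c-Myc (which set each clone received is not given in the sources used here). Of these, 6 were Aid+/+, in series 967B (967B2, 967B4, 967B6) and series 979B (979B1, 979B3, 979B4). The other 6 were Aid-/- and lack the cytidine deaminase Aid, in series 979F (979F1, 979F2, 979F3) and a second Aid-/- series (981E1, 981E4, 981E5). All were labelled male, of a mixed C57BL6, DBA and 129S4 background, with a Nanog-GFP reporter, and were grown at passage 6 on gelatin with LIF and puromycin after earlier passages on feeder cells. Series are read from the clone names, 4 in all with 3 clones each. Slide 1 carried 967B, slide 2 carried 979F, and slide 3 carried both 979B and the second Aid-/- series. The number in the name was taken as the experiment, and for the second Aid-/- series that experiment is uncertain. In mouse pluripotent cells the FGF-ERK pathway is known for promoting exit from the naive state, while LIF acts through STAT3 to hold the cells in it.

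Each array was 1 clone with 1 one-colour hybridisation. Between 56.9% and 60.4% of the probes were well above background on an array and no spot was saturated. Precision is limited by the number of arrays. As a check of the labels, both probes of Aid were lower in every Aid+/+ clone (log2 signal -5.63 to -2.76) than in every Aid-/- clone (0.67 to 2.90). These probes lie in the 3′ part of the gene and by the study's account should read RNA driven by the inserted drug cassette in the Aid-/- cells, which was not tested here, so that they do not check the loss of Aid. All 10 pluripotent cell markers passed the background call on each of the 12 arrays, and their summed log2 signal was 9.57 to 10.06. Of the 10 fibroblast markers, 5 passed it on every array and 1, Lum, on none. Their summed log2 signal was 1.02 in 967B4, 2.81 and 3.81 in the other clones of 967B, 3.55 to 4.13 in 979B, 3.76 to 4.75 in the second Aid-/- series and 4.55 to 5.07 in 979F. In such bulk RNA, fewer cells of a type and less RNA per cell cannot be told apart.

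Promoter windows were available for 7 of the 10 genes (RefSeq, GRCm38.p6, 250 bases before to 50 after a transcript start). The windows of Egr2, Fos and Fosb are shown because these genes varied widely between clones, and that of Ier3 because its signal ran opposite to that of Egr2. Each is written 5′ to 3′ on the strand of the gene, with the motifs found in capitals.
Egr2, chr10:67537619-67537918, plus strand: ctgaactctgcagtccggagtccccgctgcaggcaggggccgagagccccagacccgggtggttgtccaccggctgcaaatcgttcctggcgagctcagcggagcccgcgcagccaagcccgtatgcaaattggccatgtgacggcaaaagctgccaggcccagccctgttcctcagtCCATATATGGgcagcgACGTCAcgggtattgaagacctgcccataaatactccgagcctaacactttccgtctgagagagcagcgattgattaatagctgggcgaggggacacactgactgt
Fos, chr12:85473640-85473939, plus strand: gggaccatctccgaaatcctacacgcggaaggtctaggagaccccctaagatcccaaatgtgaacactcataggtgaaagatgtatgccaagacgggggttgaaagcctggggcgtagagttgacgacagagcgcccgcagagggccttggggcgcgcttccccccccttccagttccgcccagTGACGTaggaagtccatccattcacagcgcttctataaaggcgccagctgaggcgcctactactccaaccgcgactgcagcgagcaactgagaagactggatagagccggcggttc
Fosb, chr7:19309996-19310295, minus strand: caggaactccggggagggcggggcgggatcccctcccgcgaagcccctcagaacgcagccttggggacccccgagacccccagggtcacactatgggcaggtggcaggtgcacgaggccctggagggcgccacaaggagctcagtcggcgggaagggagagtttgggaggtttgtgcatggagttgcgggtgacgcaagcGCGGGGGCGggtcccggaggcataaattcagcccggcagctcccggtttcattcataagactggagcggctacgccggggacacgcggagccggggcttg
Ier3, chr17:35821463-35821762, plus strand: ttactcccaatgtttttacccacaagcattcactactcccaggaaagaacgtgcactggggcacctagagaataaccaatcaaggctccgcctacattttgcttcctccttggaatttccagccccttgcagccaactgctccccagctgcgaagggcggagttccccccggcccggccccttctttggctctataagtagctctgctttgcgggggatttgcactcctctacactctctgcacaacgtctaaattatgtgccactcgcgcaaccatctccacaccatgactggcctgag

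The capitals mark the CArG box bound by SRF, the CRE core TGACGT and the EGR site GCGNGGGCG, and the CRE core stands in the Egr2 window as its reverse complement. Both strands were searched, also for the whole CRE TGACGTCA (which contains the core), the AP-1 site TGANTCA and the ETS site CCGGAAGT. The printed Egr2 window held a CArG box and a CRE core, and 4 of its 5 listed windows held a CArG box, 3 of which overlap. Of all 32851 promoter windows, 1.63% held a CArG box, 7.51% a CRE core and 5.55% an EGR site. Fos held a CRE core and Fosb an EGR site, while none of the 6 motifs was found in the windows of Ier3, Junb, Dusp6 and Spry2. A match, or the lack of one, describes the letters of the window only, and bases further upstream were not searched.

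Egr2 is also needed for myelination and hindbrain patterning. Its log2 signal, relative to the 75th percentile of each array, was -2.43, -0.55 and -2.76 in 967B2, 967B4 and 967B6. It was -3.92, -4.06 and -3.94 in 979B1, 979B3 and 979B4. In 979F1, 979F2 and 979F3 it was -6.88, -5.04 and -5.15 and was not well above background on any of these 3 arrays. In 981E1, 981E4 and 981E5 it was -1.84, -0.63 and -0.32. The 4 series therefore stood in the order second Aid-/- series, 967B, 979B and 979F, with overlap between the first pair and none between the others. Since the 979F clones were not well above background, their mean was set with a floor for each array. Each was given the lowest signal of any probe well above background there, or the signal of Egr2 itself where that was higher. Against this mean, that of the second Aid-/- series was 17.0-fold higher, that of 967B 8.60-fold and that of 979B 2.06-fold. A probe above the floor can still lack the background call, as Egr2 did in 979F3 (-5.15 against -5.17). These folds are therefore not strict lower limits.

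Egr1, the best known gene of the family, was well above background in all 12 clones. Its log2 signal was 2.03, 3.74 and 1.84 in the 967B clones and 1.49, 1.16 and 1.66 in the 979B clones. It was 0.36, 0.28 and 0.10 in the 979F clones and 2.36, 3.00 and 2.61 in 981E1, 981E4 and 981E5. The 979F clones were the 3 lowest and lay within 0.26 of one another. Egr3 did not rise well above background on any array, which leaves it without a fold.

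Fos, the partner of Jun proteins in AP-1, had log2 signals of -1.44, 2.65 and -1.49 in the 967B clones. It was -0.65, -1.70 and -1.51 in the 979B clones, -3.04, -2.90 and -2.88 in the 979F clones and -1.23, -1.07 and -1.42 in the second Aid-/- series. Clone 967B4 alone stood far above, and the 979F clones were again the lowest. Fosb, a close relative of Fos, followed with -2.38, 0.29 and -3.01 in 967B and -2.31, -2.68 and -2.49 in 979B. It was -3.52, -2.74 and -3.05 in 979F and -1.42, -1.10 and -1.38 in the second Aid-/- series. Junb, an AP-1 subunit that LIF also induces, covered a smaller range of -4.11 to -2.51, with 967B4 highest and 981E5, 981E1 and 981E4 next.

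Of the feedback genes, Dusp6 had log2 signals of 3.74 to 4.76 over the 12 clones, a 2.03-fold range, and Spry2 of -1.63 to -0.67, a 1.94-fold range. Spry4 spanned -2.49 to -0.11, and both ends were in the second Aid-/- series, 981E5 and 981E1. Ier3 ran the other way from Egr2, with 0.09, 0.34 and -0.26 in 967B, 0.89, 1.39 and 0.89 in 979B, 1.72, 0.97 and 0.89 in 979F and 0.57, -0.10 and 0.18 in the second Aid-/- series. All 6 clones of 979B and 979F were above all 6 of the other series for this gene.

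**Figure D1:**
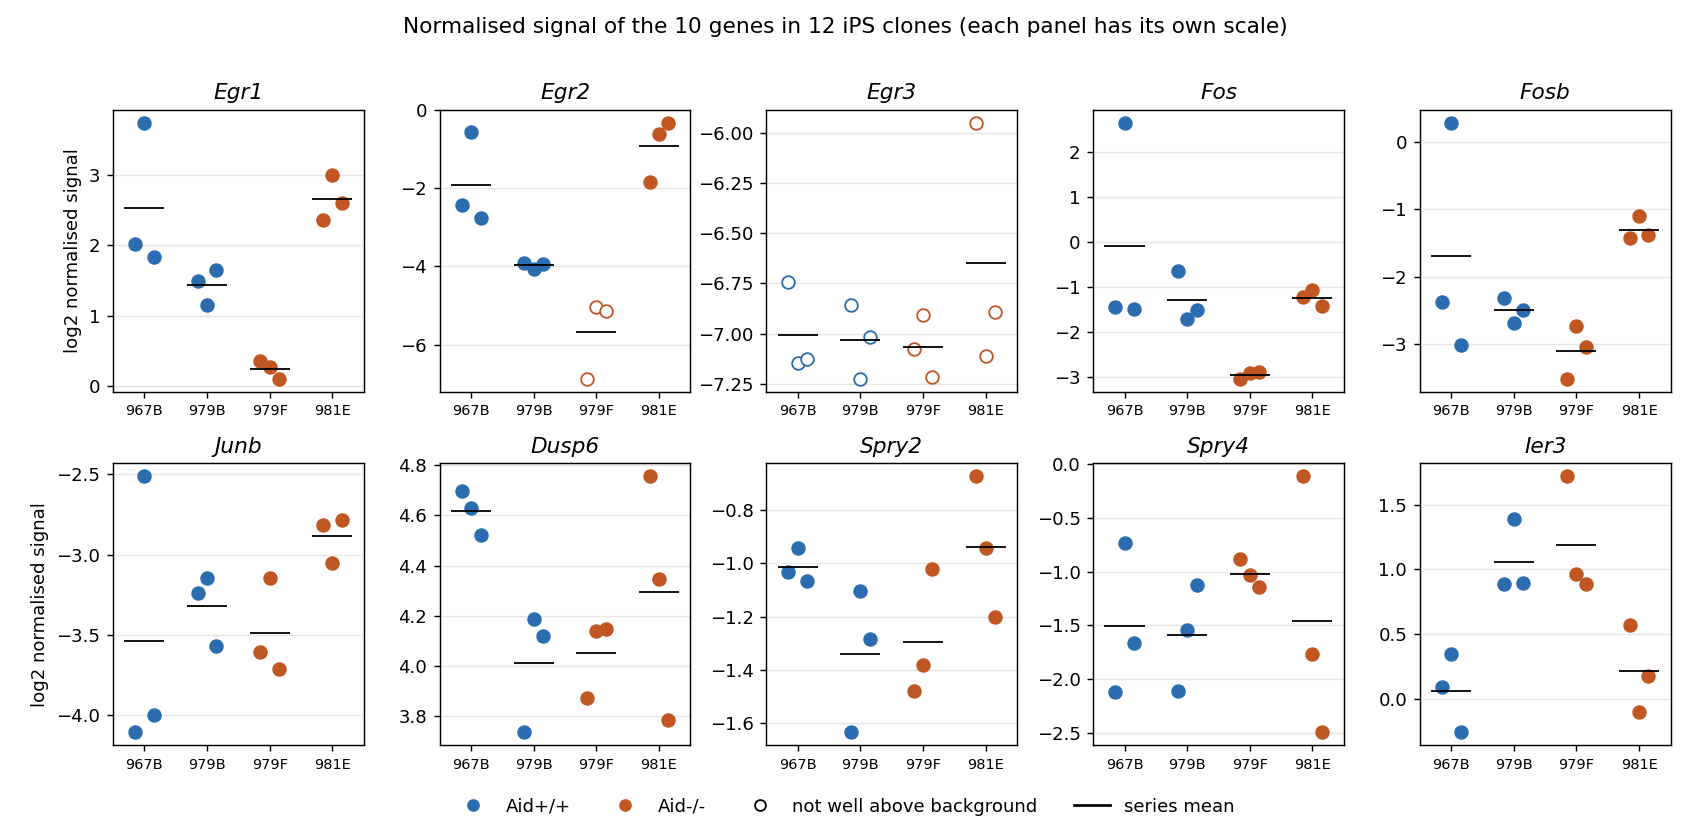
Log2 normalised signal (y axis, relative to the 75th percentile of each array) of each gene in 12 iPS clones by series (x axis), 1 point per clone, series named by the shared start of the clone names, blue for Aid+/+ and orange for Aid-/-, open where the probe was not well above background, with a line at the series mean. The 979F clones are the lowest for Egr1, Egr2 and Fos, and 967B4 stands above the other Aid+/+ clones for Fos and Fosb.

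Between experiment 979 and the other clones, the contrast for which Egr2 was chosen, the mean log2 signals of the 6 and 6 clones were -4.83 and -1.42 for Egr2, 0.84 and 2.60 for Egr1 and 1.12 and 0.14 for Ier3. These 3 of the 10 genes did not overlap between the groups, against 2.7% of all probes, from which nothing is read here. For Fos the means were -2.11 and -0.67, and for Fosb -2.80 and -1.50, with overlapping clones in both. Among 13499 genes well above background on all 12 arrays, those with the highest Pearson r with Egr2 over the 12 clones were BC004004 (0.96), C87436 (0.95), Pmaip1 (0.95), Efs (0.94) and Trp53inp1 (0.93). The most opposite were Ccdc102a (-0.94), Cldn5 (-0.93), Pced1b (-0.93), Lrfn1 (-0.93) and Rmi2 (-0.93). Egr1 ranked 7 of 13499 with r = 0.93, Fosb 136 with 0.85 and Fos 925 with 0.68, while Ier3 had -0.80. These values describe 12 clones that share series, slides and arrays, and differences between the 4 series can set them. Each r also includes the 979F clones, where Egr2 itself was not well above background.

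Whether Aid deletion altered these genes was asked by comparing the 6 Aid-/- with the 6 Aid+/+ clones. None of the 10 genes passed an adjusted p of 0.05 in limma over all probes, where 0.0611% of the probes did. An unadjusted p under 0.05 was found for 0 of the 10, against 13.6% of all probes. No gene separated the genotypes without overlap, against 2.18% of all probes, and leaving out 967B4 gave 0 as well, against 2.8%. Fos had the largest difference, -1.40 on the log2 scale (SE 0.72, adjusted p = 0.425 in limma, 95% interval -2.96 to 0.16), with means of -2.09 ± 0.94 (SD, n = 6) in Aid-/- and -0.69 ± 1.68 (SD, n = 6) in Aid+/+ clones. The methods' t-test with the same adjustment called 0 of the 10 genes as well. Without 967B4 the difference of Fos was -0.73. For Egr2 the difference was -0.37 with an interval of -2.84 to 2.11, and for Egr1 -0.53 with one of -1.85 to 0.78. The Egr1 difference was -0.18 without 967B4, -0.32 to -0.26 without any 1 clone of 979F and -0.84 without 981E4. The intervals were narrower than these for Spry2 (-0.28 to 0.40) and Dusp6 (-0.57 to 0.29). All of them treat the 6 clones of a genotype as independent, although the clones fall into series of 3. With slide as a fixed block Egr2 had 3.04, a value that equals the second Aid-/- series against 979B, both on slide 3. It therefore belongs to the contrast that chose the gene, and no p is read from it. In that fit 2299 of 55681 probes passed the adjusted p.

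Within experiment 979, the 979F (Aid-/-) clones were compared with the 979B (Aid+/+) clones, which lay on different slides, so that genotype, series and slide cannot be told apart. Egr1 was 2.28-fold lower in 979F (log2 -1.19, SE 0.42, adjusted p = 0.235 in limma), with 3 clones below all 3 of 979B. Egr2 had a fitted log2 difference of -1.72 (SE 0.65, adjusted p = 0.262 in limma) against 979F values not well above background, which was -0.54 after normexp background correction and -1.12 without 979F1. Fos had one of -1.65 (SE 0.90, adjusted p = 0.434 in limma). None of the 10 genes passed the adjusted p, against 0.614% of all probes, and 2, Egr1 and Egr2, had an unadjusted p under 0.05, against 14.6% of all probes. Egr1, Egr2, Fos and Fosb were lower without overlap, 4 of 10 genes against 29.3% of all probes. Without 967B4, which enters this comparison only through the shared estimate of spread, Egr1 (adjusted p = 0.0245 in limma) and Fos (adjusted p = 0.0198 in limma) passed with the same log2 differences. Leaving out that clone also raised the number of all probes that passed here from 342 to 1312 of 55681. The fibroblast markers were higher in 979F than in 979B, with 9 of 10 not overlapping and a median log2 difference of 1.20, and their part in these values was not tested.

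Among the other clones, the second Aid-/- series was compared with 967B (Aid+/+), again on different slides. None of the 10 genes passed the adjusted p in limma, against 0.196% of all probes, and 0 had an unadjusted p under 0.05. None was without overlap, against 14.8% of all probes. The log2 difference was 0.98 for Egr2 (SE 0.65), 0.66 for Junb (SE 0.37), 0.12 for Egr1 (SE 0.42) and -1.15 for Fos (SE 0.90). Leaving out 967B4 turned Fos to 0.23 and raised Egr2 to 1.66 and Fosb from 0.40 to 1.39, and 5 of 10 genes (Egr1, Egr2, Fos, Fosb and Junb) were then higher in the second Aid-/- series without overlap, against 29.6% of all probes. The direction for Fos in this comparison therefore rested on 1 clone. The 10 fibroblast markers had a median log2 difference of 2.06 here, 6 of them with an unadjusted p under 0.05 against 12.8% of all probes, and their part in these values and in that of Phlda1 below was not tested.

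**Figure D2:**
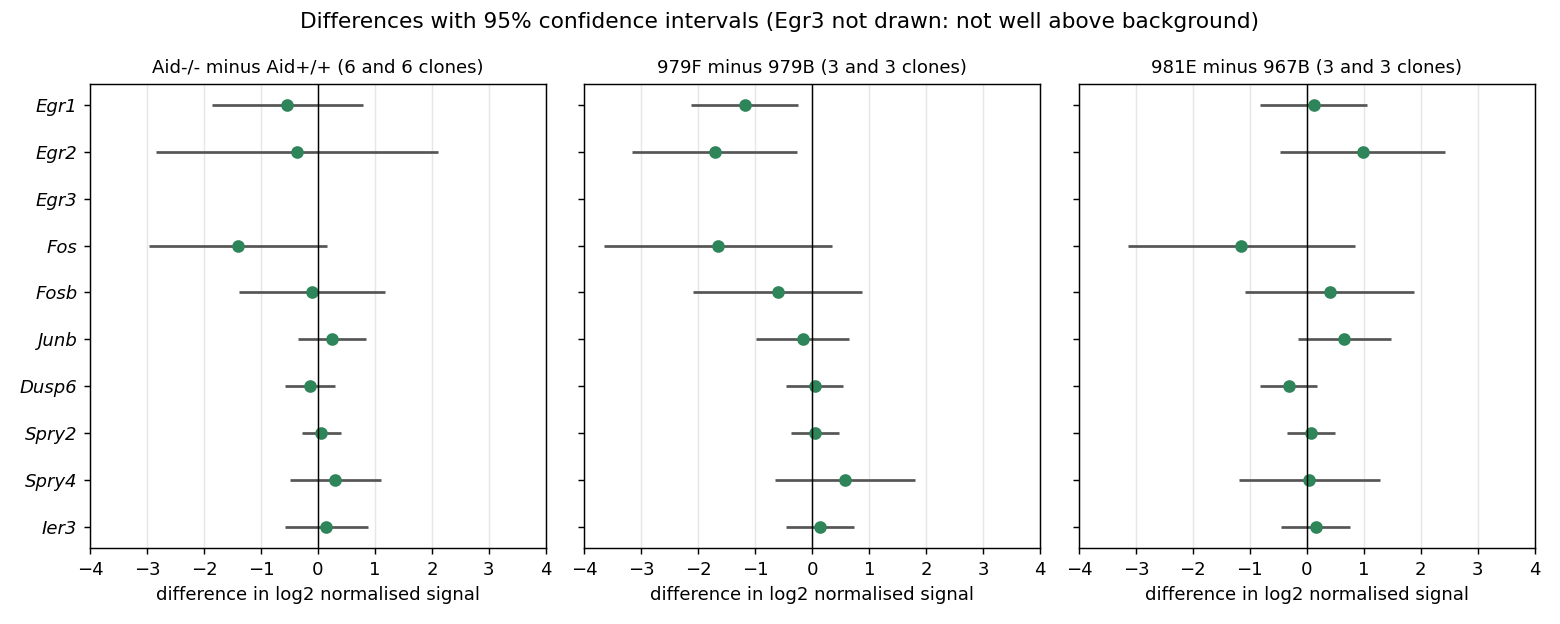
Difference in log2 normalised signal (x axis) for 9 genes in the 3 comparisons of Aid-/- with Aid+/+ clones, points for the limma estimate and bars for its 95% interval. The intervals exclude 0 only for Egr1 and Egr2 in 979F against 979B, neither of which passed the adjustment over all probes, and the Egr2 value there rests on a probe not well above background in 979F.

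The difference of the genotype effect between the 2 pairs of series was tested as a contrast, which is the same as slide 3 against slides 1 and 2 and cannot be told apart from it. None of the 10 genes passed in limma, against 0.106% of all probes. Egr2 alone had an unadjusted p under 0.05, with -2.70 (SE 0.92, adjusted p = 0.374 in limma, 95% interval -4.75 to -0.65), and -1.21 after normexp background correction. Of all probes 9.85% had such a p. Egr1 had -1.31 (SE 0.60, adjusted p = 0.516 in limma), and without 967B4 it had -1.91 (adjusted p = 0.0396 in limma). Leaving out that clone raised the number of probes that passed from 59 to 170 of 55681.

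Clone 967B4 held the highest value of the 12 clones for Egr1, Fos, Fosb and Junb. Against the mean of 967B2 and 967B6 it was 17.4-fold higher for Fos, 7.87-fold for Fosb, 4.11-fold for Egr2, 3.51-fold for Egr1, 2.91-fold for Junb and 2.23-fold for Spry4. These 6 of 10 genes were over 2-fold higher and 0 were over 2-fold lower, while 3.69% of the probes well above background on all 12 arrays were over 2-fold higher in this clone. In either direction 9.14% of those probes differed over 2-fold in 967B4, the largest share of any clone, followed by 3.8% in 981E5. Dusp6 (log2 difference 0.02) and Spry2 (0.11) were close to the other clones of the series. Of 31 other immediate-early genes measured on all arrays, 3 were over 2-fold higher in 967B4 (Dusp1, Atf3 and Arc) and 5 over 2-fold lower (Ccn2, Fosl1, Gadd45g, Plk3 and Csrnp1). In the same clone 4 of the 5 fibroblast markers measured on all arrays were over 2-fold lower, with a median log2 difference of -3.56 over the 5, and of the 10 pluripotent cell markers Nanog was over 2-fold higher and Fbxo15 over 2-fold lower. Of 11 other LIF-STAT3 genes measured on all arrays, 3 were over 2-fold higher (Gbx2, Tfcp2l1 and Klf4) and 0 over 2-fold lower. Of 15 ETS and other ERK output genes, Hbegf was over 2-fold higher and Myc over 2-fold lower. The part of these markers and genes in the signal of the 10 genes was not tested. This is 1 clone with 1 array, so the values carry no replicate error.

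**Figure D3:**
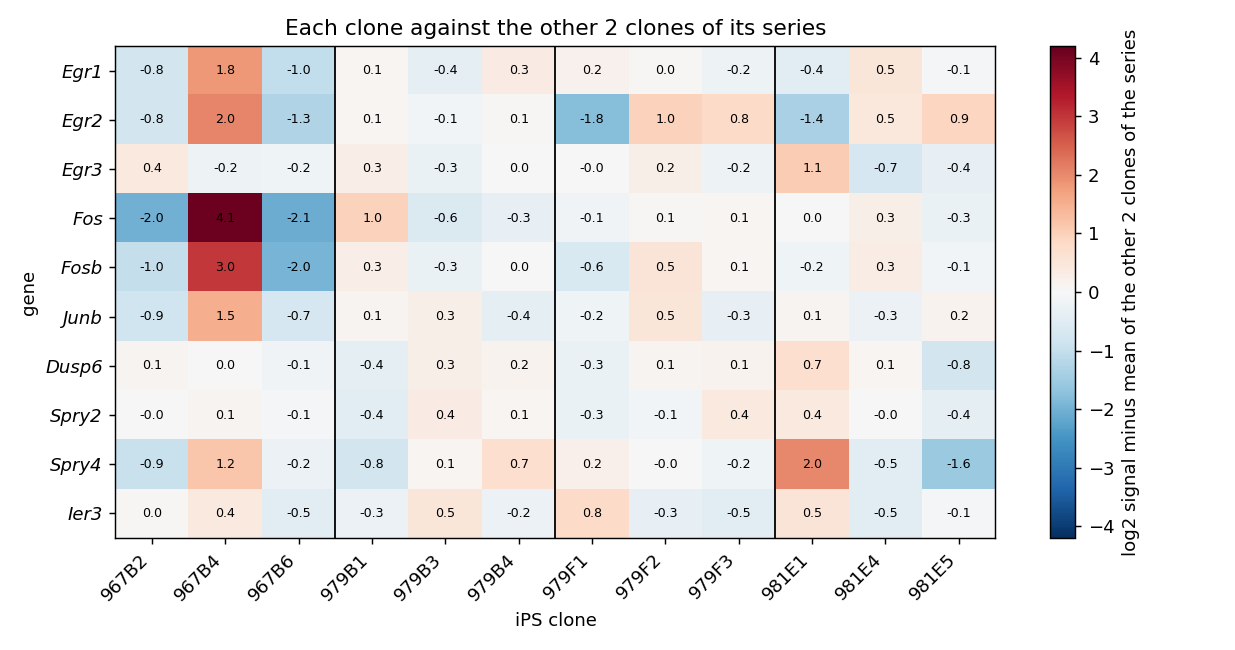
Log2 signal of each gene (rows) in each clone (columns, grouped by series) minus the mean of the other 2 clones of its series, printed in each cell and coloured red for higher and blue for lower. Clone 967B4 is higher by 4.12 for Fos and 2.98 for Fosb, and higher by 2.04 for Egr2 and 1.81 for Egr1.

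Within series, the pooled SD of the log2 signal was 1.23 for Fos, 0.90 for Fosb, 0.88 for Egr2 and 0.57 for Egr1, against a median of 0.20 over 13499 genes well above background on all 12 arrays. Without 967B4 it was 0.32 for Fos, 0.30 for Fosb and 0.24 for Egr1, but 0.71 for Egr2, whose 979F values were not well above background. Spry4 kept a high value with and without that clone (0.75 and 0.72), and its widest range was that of 981E1 to 981E5. Spry2 had 0.23 and Dusp6 0.29, and 40.7% and 26.5% of those genes varied more.

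The other genes of the pathway were taken from lists of known members. Of 34 other immediate-early genes, 0 passed the adjusted p in limma for genotype and 4 had an unadjusted p under 0.05, with a median log2 difference of 0.20 against -0.01 over all probes. Of all probes 13.6% had such a p for genotype, which is the share to set beside each such count in this and the next paragraph. Fosl2 (1.57, SE 0.33, adjusted p = 0.0929 in limma) and Fosl1 (1.57, SE 0.35, adjusted p = 0.1 in limma), the FRA members of the FOS family, had the largest differences, followed by the kinase gene Plk2 (0.61, SE 0.31). Their sign was opposite to that of Fos. Of 13 other ERK feedback inhibitors 0 passed and 3 had an unadjusted p under 0.05, and the largest difference was that of Spry1 (-0.71, SE 0.17, adjusted p = 0.121 in limma), followed by the ERK phosphatase Dusp9 (-0.48, SE 0.18) and the FGF receptor antagonist Il17rd (-0.37, SE 0.16).

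Of 18 ETS and other ERK output genes with a probe, 0 passed for genotype, 4 had an unadjusted p under 0.05 and the median log2 difference was 0.21. Phlda1, a pleckstrin homology gene induced by growth factors, was the only gene of these lists to pass in any of the 4 comparisons. It was 2.19-fold higher in the second Aid-/- series than in 967B (log2 1.13, SE 0.18, adjusted p = 0.046 in limma), and the adjusted p was 0.0507 to 0.158 when any 1 of the 12 clones was left out. Of 31 FGF-ERK ligands, receptors and kinases 0 passed for genotype and 8 had an unadjusted p under 0.05, with a median of -0.07. The EGR corepressor Nab2, itself an EGR target, had 0.78 (SE 0.29, adjusted p = 0.269 in limma), and Nab1 0.10. The median was 0.00 over 13 LIF-STAT3 genes, 0.02 over 7 heat shock and stress genes and 0.00 over 12 primed and early differentiation markers, with 0 called in each list. It was -0.08 over the 10 pluripotent cell markers and 1.68 over the 10 fibroblast markers, of which 9 had an unadjusted p under 0.05 and 0 passed.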

How the data were processed

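Gene expression was measured in 12 iPS cell clones on 1-colour Agilent arrays. The authors read the Cy3 intensity of each spot with Feature Extraction 10.7.3.1 and deposited intensities corrected for background and spatial trend. The deposited log2 values, normalized by the authors in GeneSpring GX at the 75th percentile, were an alternative. From the processed intensities, log2 was taken, control and outlier spots were left out, replicate spots were averaged per probe, and each array was centred on its 75th percentile. An accession was matched to RefSeq (GRCm38.p6) for 27235 of 28685 probes. The array design used mm9, so no positions were taken for probes.

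Linear models were fitted with lmFit and eBayes of limma 3.58.1 under R 4.3.3 for genotypes and for clone series, with Benjamini-Hochberg adjustment over all 55681 probes. The series fit shares 1 estimate of spread over all 12 clones. Intervals are 95% intervals of single genes. The fits were tested on simulated data, where the share of false calls for the difference between the series pairs was above the nominal level. The limits by which the simulation was judged were set with its values known. The rest used Python 3.11.15 (pandas 2.3.3, numpy 2.4.6, matplotlib 3.10.9 and scipy 1.17.1). Members, lists and tests were chosen with earlier results of these data known. Of the lists, genes past the adjusted p were named, and otherwise up to 3 per pathway list with the largest genotype difference. A gene with several probes was read from the probe with the highest mean signal. The alternatives were another background correction (normexp, offset 50, on median rather than mean spot intensities, which the tables used here hold), other normalizations, the methods' t-test, filters on dim probes, blocks for slide or series, and leaving out each clone. The counts of genes without overlap without 967B4 were added after the values were seen.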

Additional observations from a re-analysis of the deposited data

Results flagged for a closer look

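Of 18 gene and genotype groups of 6 clones, 3 held a clone far from the other 5, each time 967B4 among the Aid+/+ clones. The rule has a nominal chance rate of about 1 group in 20, which was not measured on these arrays. In 967B4, 9.14% of all probes well above background on all 12 arrays differed over 2-fold from the other clones of its series. Its log2 signal was 3.74 for Egr1, where the next clone had 2.03, 2.65 for Fos, where the next had -0.65, and 0.29 for Fosb, where the next had -2.31. The 3 genes were read on the same array and are not independent.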

How the results depend on the processing

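No member passed the adjusted p in the genotype comparison, and under 24 alternatives the count was 1 with slide as a fixed block (Egr2) and 0 otherwise. That fit called 2299 of 55681 probes. For Egr2 it equals the second Aid-/- series against 979B, part of the contrast that chose the gene, so nothing is read from that call. Leaving out clones gave 0 to 1 for the difference between the pairs of series, 0 to 2 for 979F against 979B and 0 for the second Aid-/- series against 967B, the highest values each time without 967B4. Over all probes the number called ran from 6 to 2299 for genotype (34 as reported, 360 by the methods' t-test), 14 to 170 for the difference (59), 53 to 1312 for 979F against 979B (342) and 35 to 608 for the second Aid-/- series against 967B (109). The count of genes without overlap between the second Aid-/- series and 967B was 5 without 967B4 and 0 with it. No paired analysis was made, because the labels give no pairing of clones between series.

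Log2 differences changed sign as follows. Slides 1 and 2 each held 1 genotype. Genotype values with slide as a fixed block therefore equal the second Aid-/- series against 979B, both on slide 3. The cause of the other changes was not tested. For genotype, slide as a fixed block gave 1.22 for Egr1, 3.04 for Egr2, 0.0465 for Fos, 1.19 for Fosb, 0.28 for Dusp6, -0.84 for Ier3 and -0.12 for Nab1. Slide as a random block gave 0.0831 for Egr2 and 0.0677 for Fosb, and normexp 0.0638 for Egr2 and -0.062 for Egr3. For the difference, Spry2 was 0.0246 with normexp and 0.006 with quantile normalization. Egr3 was 0.0076 in 979F against 979B with the percentile over detected probes, and in the second Aid-/- series against 967B normexp gave -0.0108 for Egr3 and -0.0015 for Spry2. Leaving out 1 clone gave ranges across 0. For genotype these were -0.96 to 0.35 for Egr2, -0.0202 to 0.23 for Egr3, -0.32 to 0.37 for Fosb, -0.0302 to 0.13 for Spry2 and -0.0563 to 0.31 for Ier3. For the difference they were -1.88 to 0.19 for Fos, -0.17 to 0.11 for Spry2 and -0.29 to 0.15 for Ier3. For 979F against 979B they were -0.13 to 0.0551 for Egr3, -0.10 to 0.13 for Dusp6, -0.10 to 0.17 for Spry2 and -0.13 to 0.30 for Ier3. For the second Aid-/- series against 967B they were -0.23 to 0.72 for Egr1, -1.85 to 0.23 for Fos, -0.26 to 1.39 for Fosb, -0.0582 to 0.21 for Spry2, -0.63 to 0.56 for Spry4 and -0.0167 to 0.32 for Ier3. For genotype, Fosl2 passed the adjusted p under 4 alternatives, Fosl1 and Phlda1 under 2 each, and Plk2 and Fgf15 under 1 each. None of these genes passed when any 1 of the 12 clones was left out. Over the alternatives the number of all probes that passed for genotype ran from 6 to 2299, against 34 as reported. Leaving out 1 clone gave -1.60 to -0.73 for Fos and -0.84 to -0.18 for Egr1. Signal over background leaves Egr3 unmeasured and Egr2 without an exact level in 979F.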
